A study of Mus musculus with 8 samples.

Results

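The genes described are 45 members of the JAK-STAT pathway, taken by symbol from the 56691 genes of a read count table: 11 cytokine receptor chains, 4 Janus kinases (JAKs), 6 STAT transcription factors, 16 inhibitors (SOCS, PIAS and PTPN proteins) and 8 genes known as targets of STAT3. The table holds 8 libraries of ribosome-associated mRNA from the ventral tegmental area (VTA) of mice, the midbrain region where many dopamine neurons lie. In 4 libraries, here called Ogt knockdown and numbered 2, 3, 4 and 5 as in the labels, the mice carried the genotype Ogtflox+/Y. In the other 4, here called control and numbered 3, 4, 5 and 6, they were Ogtflox-/Y. All were injected in the VTA with AAV-TH-Cre, which drives Cre recombinase from the tyrosine hydroxylase promoter, and with AAV-Flex-NBL10, a Cre-dependent HA-tagged NBL10 through which ribosomes were enriched. Controls therefore carry Cre and the tag too, and recombination is meant to be limited to infected cells that use that promoter. Age, strain and the number of animals behind a library are not given in the sources used here, so the spread that each p-value measures is the one between libraries and may be technical.

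Cytokines of the interleukin-6 family bind receptors that share the signalling chain gp130, encoded by Il6st. Receptor-bound JAKs then phosphorylate STATs on a tyrosine, and the STATs enter the nucleus and switch on genes, among them Socs3, whose product blocks the same receptor. STAT3 is also phosphorylated on a serine, and Ogt encodes the transferase that attaches O-GlcNAc to proteins, STAT3 among them; the study asks about the competition of these marks in dopamine neurons. The counts measure mRNA on ribosomes and say nothing of either mark.

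Total counts ranged from 49802305 to 147747191 reads per library. The Ogt message was lower in every knockdown library (36.0 to 74.4 CPM, read counts scaled to library size) than in every control library (108 to 159 CPM). All 10 dopamine neuron markers of a fixed list (Th, Ddc, Slc6a3 and others) were detected in every library, and all 10 fell; their summed level was 1477 to 3375 CPM in controls and 441.9 to 696.9 CPM in knockdown. The libraries also held messages of other cells. All 10 astrocyte markers had a log2 fold change above 0, and 3 of the 10 passed the test described below. Their summed level was 1510 to 5719 CPM in controls, lowest in control 3, and 9934 to 13930 CPM in knockdown. Gfap alone averaged 1162 CPM in controls and 7270 CPM in knockdown, so the rise of this sum rests largely on Gfap. For 12 microglia and macrophage markers the summed level was 30.5 to 53.9 CPM against 62.1 to 177.7 CPM, and 9 rose. No marker of these lists was at 0 in any library. Of 10 oligodendrocyte markers 5 rose (sum 1264 to 1877 CPM in controls, 1955 to 4453 CPM in knockdown). The 10 T and B cell markers summed to 8.39 to 12.4 CPM in controls and 17.2 to 23.3 CPM in knockdown; 2 of the 6 tested rose, and 7 of the 10, Cd3e among them, were at 0 in some library. Control 3 stood apart: its 10 endothelial markers summed to 1032 CPM, against 17.4 to 25.1 CPM in the other controls and 34.9 to 51.4 CPM in knockdown. Its 10 pericyte and smooth muscle markers summed to 633.7 CPM, against 21.2 to 28.1 and 36.8 to 51.4 CPM. In bulk libraries, fewer cells of a type and less RNA per cell cannot be told apart. No library here was made before ribosome enrichment, so a difference in the yield of that step cannot be told apart from these either.

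**Figure D1:**
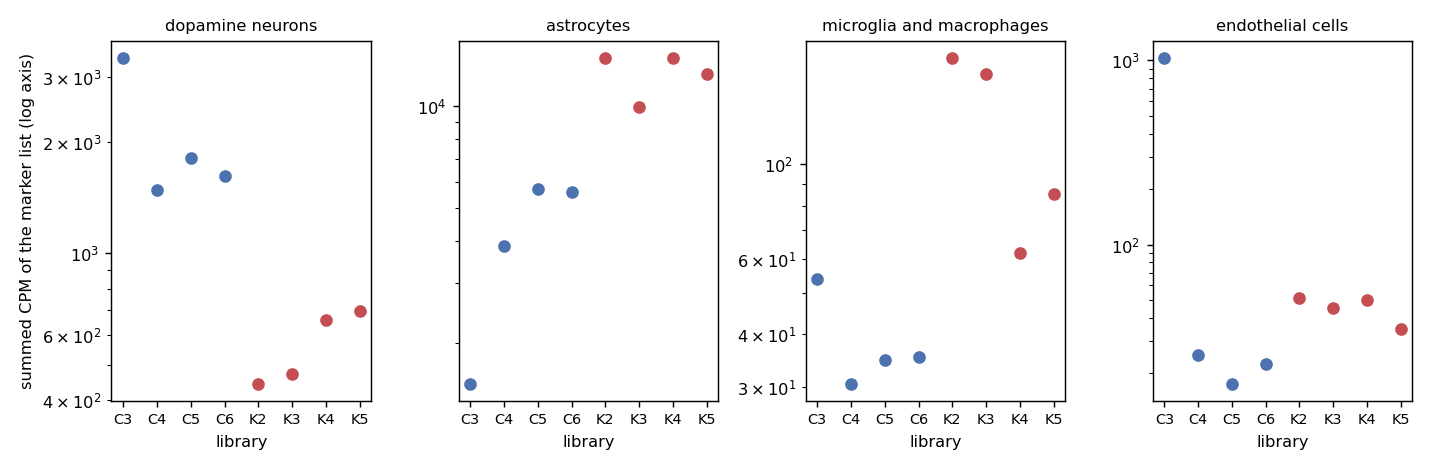
Summed CPM of 4 marker lists (log axis) in each library, with controls (C) in blue and Ogt knockdown (K) in red, labelled by replicate number. Dopamine neuron markers lie lower and astrocyte and microglia markers higher in every knockdown library, and endothelial markers reach 1032 CPM in control 3 alone.

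Of the 45 members, 44 passed the filter on low counts. Of these, 17 rose and 6 fell in knockdown (23 changed) and 21 did not pass the test (edgeR quasi-likelihood test, threshold 0.05 on p adjusted over all genes). Among all 19912 genes tested, 28.5% changed, 13.4% higher and 15.1% lower. The members' median log2 fold change was 0.29, and that of all genes was 0. Members and the other lists below were chosen with earlier results of these data known. Their shares beside those of all genes are therefore descriptions and not tests. Control and knockdown levels were fully apart for 25 of the 44 members (18 higher and 7 lower in knockdown), against 35.1% of all genes tested. By tier, 4 of 11 receptors, 1 of 4 kinases, 2 of 5 tested STATs, 6 of 16 inhibitors and 4 of 8 targets rose. In the same order, 0, 1, 1, 2 and 2 fell. Without control 4, 11 members rose and 3 fell, and 19.4% of all genes changed. Without both libraries numbered 3, 25 rose and 8 fell, and 46.8% of all genes changed.

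**Figure D2:**
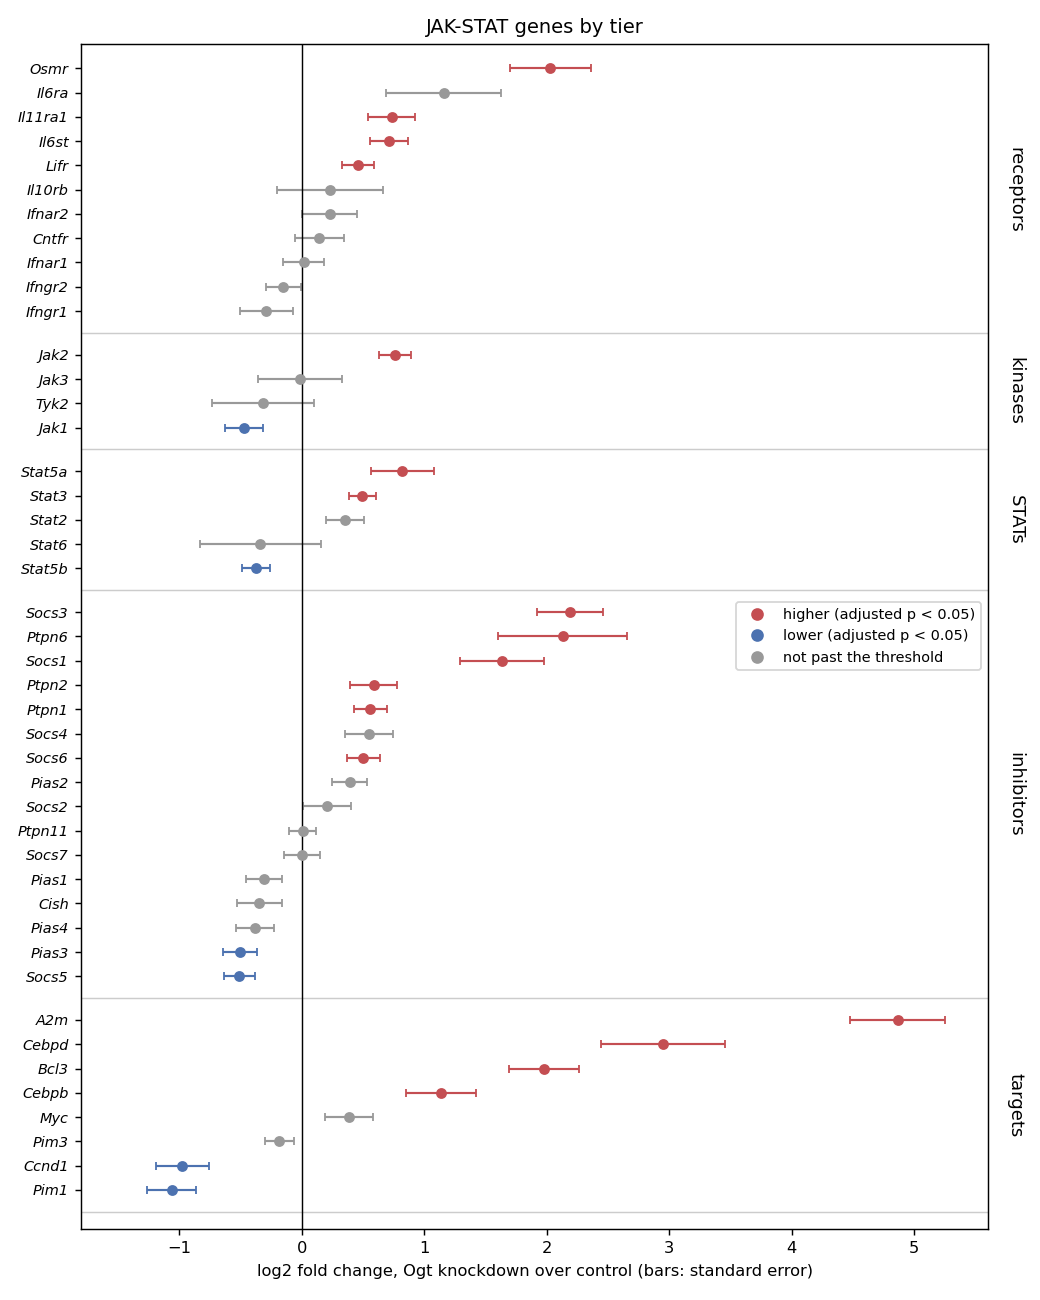
Log2 fold change of the 44 tested members, Ogt knockdown over control, ordered within 5 tiers. Points are edgeR estimates and bars their standard errors. Red and blue mark members past the threshold as higher (17) and lower (6). The targets span the widest range, from A2m at 4.86 to Pim1 at -1.06.

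Of the 11 receptors, 4 rose: Il6st, Lifr, Osmr and Il11ra1. They are among the 6 of the interleukin-6 family, whose median log2 fold change was 0.72, and the 2 others, Cntfr and Il6ra, did not pass; the family was not tested against the other receptors. Il6st, the shared gp130 chain (chromosome 13, 112600604 to 112646620, GRCm39), had 80.2, 66.7, 73.5 and 74.6 CPM in controls 3, 4, 5 and 6. In knockdown 2, 3, 4 and 5 it had 138.6, 91.0, 141.1 and 112.3 CPM. Every knockdown library lay above every control, with knockdown 3 the lowest of them. The rise was 1.64-fold (log2 fold change 0.71, SE 0.15, adjusted p = 0.00751).

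Osmr encodes the chain that joins gp130 to form the oncostatin M receptor. It had 9.93, 2.82, 7.55 and 4.82 CPM in the controls and 28.5, 24.4, 25.5 and 24.2 CPM in knockdown. The controls spread widely, the knockdown libraries lay close together, and the groups did not overlap. Its rise, 4.08-fold (log2 fold change 2.03, SE 0.33, adjusted p = 0.00192), was the largest of the receptors. Lifr, the chain that joins gp130 for leukaemia inhibitory factor, rose from 33.1 ± 2.66 to 45.5 ± 5.00 CPM (SD, n = 4 each; 1.37-fold, adjusted p = 0.0239). Leaving out control 4, control 6, knockdown 2 or knockdown 4 ended the call (adjusted p up to 0.0891).

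Il11ra1, the interleukin-11 receptor chain, had 58.7, 50.7, 57.5 and 49.3 CPM in the controls and 75.1, 132.7, 77.0 and 74.5 CPM in knockdown. Knockdown 3 stood far above the other knockdown libraries. The log2 fold change was 0.73 (SE 0.20, adjusted p = 0.0195) with that library and 0.48 without it (adjusted p = 0.00753). Adjusted p was 0.0629 when control 4 was left out and 0.0592 when control 6 was. Mice have near-identical copies of this gene, and the authors' count skipped multi-aligned reads, so its level is uncertain.

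Cntfr, the ciliary neurotrophic factor receptor, did not pass the test (125.9 ± 16.6 CPM in controls, 138.9 ± 36.4 CPM in knockdown, SD, n = 4 each; adjusted p = 0.637). Il6ra, the interleukin-6 binding chain, had 3.33 CPM in control 3 and 0.721 to 1.32 CPM in the other controls, against 2.37 to 5.03 CPM in knockdown. Its difference did not pass (log2 fold change 1.16, SE 0.47, adjusted p = 0.093), and passed without control 3 (1.80, adjusted p = 0.00251). Per kilobase of exon, Cntfr was the most abundant of the family in controls, at 45.3 RPKM (reads scaled by exon length and library size). Il11ra1 followed at 12.1, Il6st at 6.64, Lifr at 3.07, Osmr at 0.519 and Il6ra at 0.184 RPKM. The level of Osmr relative to Lifr on that scale was 0.165 ± 0.0712 in controls and 0.504 ± 0.0313 in knockdown (SD, n = 4 each).

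The 5 other receptor chains take up interferons and interleukin-10. Ifnar1, Ifnar2, Ifngr1, Ifngr2 and Il10rb had log2 fold changes of 0.02, 0.23, -0.29, -0.15 and 0.23, and none passed (adjusted p = 0.35 to 0.955). Control 3 was the highest of all 8 libraries for Il10rb, Ifngr1 and Ifnar1, and the lowest for Ifngr2. Il10rb had 10.84 CPM there and 2.90 to 4.00 CPM in the other controls. Leaving out both libraries numbered 3, Ifnar1 (log2 fold change 0.26, adjusted p = 0.0303) and Ifnar2 (0.54, adjusted p = 0.0045) passed as higher and Ifngr2 as lower (-0.33, adjusted p = 0.00485).

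Of the Janus kinases, Jak2 rose and Jak1 fell. Jak2, the kinase of hormone receptors such as those for growth hormone and prolactin and also bound to gp130 (chromosome 19, 29229228 to 29290480), had 33.9, 25.8, 28.8 and 26.6 CPM in the controls and 53.3, 47.5, 48.8 and 44.9 CPM in knockdown. The groups did not overlap (1.69-fold, log2 fold change 0.76, SE 0.13, adjusted p = 0.00257). Jak1, the main kinase of gp130 and of interferon receptors, had 136.9, 124.2, 131.2 and 132.8 CPM in the controls and 98.2, 66.8, 109.3 and 105.0 CPM in knockdown. Each knockdown library was below each control, and knockdown 3 was the lowest. The fall was 1.38-fold (log2 fold change -0.47, SE 0.16, adjusted p = 0.0463). Leaving out any 1 control, knockdown 2 or knockdown 5 ended that call (adjusted p from 0.054 to 0.104), as did upper quartile scaling (0.0741).

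Per kilobase, Jak1 exceeded Jak2 in every library but knockdown 3, where they were nearly level. The ratio of Jak2 to Jak1 in RPKM was 0.288 to 0.356 in the controls. In knockdown 2, 3, 4 and 5 it was 0.779, 1.02, 0.642 and 0.614. Jak1 made up 67.1 ± 5.22% of the summed RPKM of the 4 JAKs in controls and 50.4 ± 4.43% in knockdown, and Jak2 21.0 ± 0.547% and 37.9 ± 5.78% (SD, n = 4 each). Jak3, the kinase of lymphocyte cytokine receptors, and Tyk2, which serves interferon receptors, were low and did not pass (adjusted p = 0.982 and 0.609). Both were highest in control 3, with 20.2 CPM of Jak3 (7.62 to 8.04 in the other controls, 6.90 to 13 in knockdown) and 16.7 CPM of Tyk2 (5.16 to 7.12 and 3.48 to 11.2). Jak3 passed as higher without both libraries numbered 3 (log2 fold change 0.63, adjusted p = 0.00171), against -0.01 with them.

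Stat3 rose modestly in every knockdown library. The gene lies on the minus strand of chromosome 11, 100775924 to 100830366 (GRCm39). Controls had 54.9, 55.7, 64.7 and 62.7 CPM and knockdown libraries 77.9, 84.7, 86.9 and 85.6 CPM. The gap between the groups was wider than the range within either. The rise was 1.41-fold (log2 fold change 0.49, SE 0.11, adjusted p = 0.0083; 0.00824 to 0.0462 when each library was left out in turn).

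Stat5b, a transducer of growth hormone and prolactin signals, moved the other way. It had 51.1, 50.4, 50.0 and 53.1 CPM in the controls and 39.2, 34.7, 39.7 and 43.9 CPM in knockdown, with no overlap (1.30-fold lower, log2 fold change -0.38, SE 0.11, adjusted p = 0.0326). Leaving out control 4, 5 or 6, or knockdown 2 or 4, ended the call (adjusted p up to 0.104), as did upper quartile scaling (0.07). Per kilobase, Stat3 was below Stat5b in every control (RPKM ratio 0.624 to 0.753) and above it in every knockdown library (1.13 to 1.42).

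Stat5a, the near-identical neighbour of Stat5b, was called as higher, from 2.50 ± 0.754 to 4.42 ± 0.392 CPM (SD, n = 4 each; adjusted p = 0.038). Its exons share 72 bases with those of Stat3 on the opposite strand, and reads were counted without strand, so reads of Stat3 and Stat5a cannot be told apart there. Stat3 had 50013 reads over the 8 libraries and Stat5a 2464. Leaving out control 4 or 5, or knockdown 2, 4 or 5, ended the call (adjusted p up to 0.12).

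Stat2, the partner of interferon signalling, did not pass (39.9 ± 7.32 and 50.9 ± 5.69 CPM, SD, n = 4 each; adjusted p = 0.119) and passed without control 3 (log2 fold change 0.45, adjusted p = 0.0338). Stat6, the transducer of interleukin-4, had 21.7 CPM in control 3 and 4.48 to 5.14 CPM in the other controls, against 5.54 to 8.57 CPM in knockdown. Its log2 fold change was -0.34 (adjusted p = 0.643), and 0.55 without control 3 (adjusted p = 0.0458), so its direction rests on that library. Stat4, which acts in lymphocytes, was not tested: it had 74 reads over the 8 libraries and at most 0.28 CPM.

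**Figure D3:**
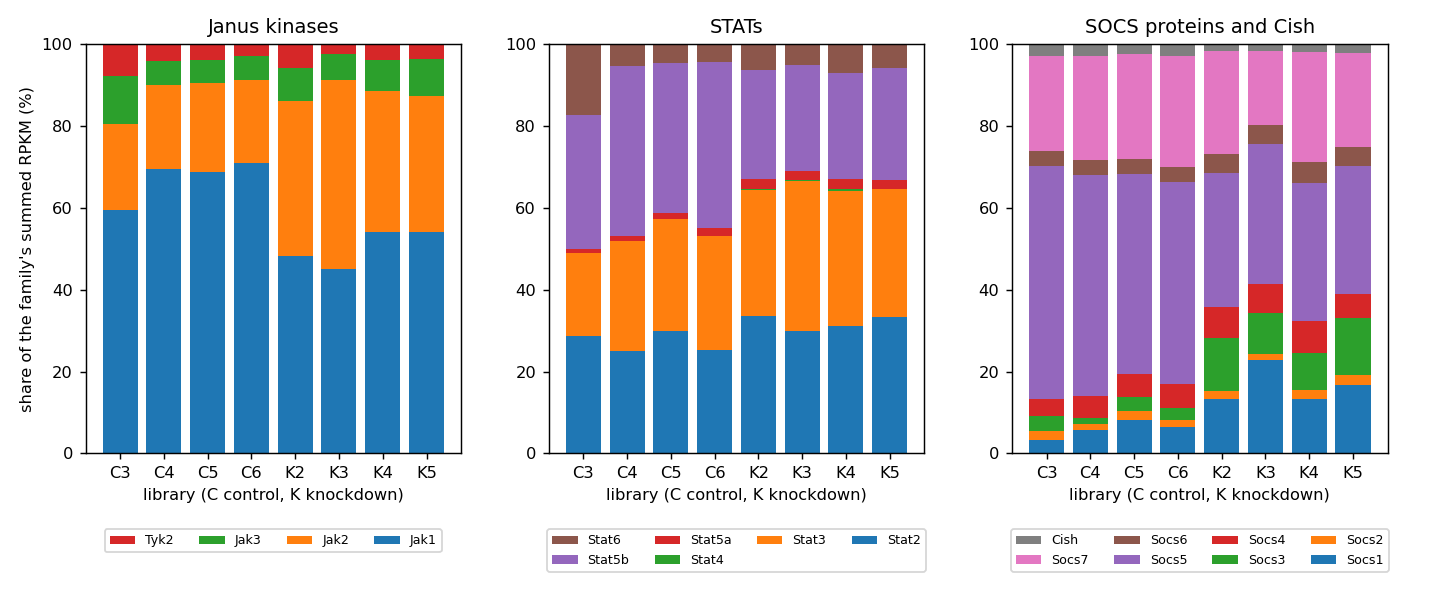
Share of each member in the summed RPKM (reads scaled by exon length and library size) of the JAKs, the STATs, and the SOCS proteins with Cish, in each control (C) and Ogt knockdown (K) library. Jak2, Stat3, Socs1 and Socs3 take larger shares in all 4 knockdown libraries, and Jak1, Stat5b and Socs5 smaller ones. Stat6 reaches 17.4% in control 3 alone.

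The 16 inhibitors were split. SOCS proteins bind activated receptors and JAKs and target them for degradation; of 8 (Cish included), 3 rose and 1 fell. Of the 4 PIAS proteins, which are SUMO ligases that bind STATs, 0 rose and 1 fell, and of the 4 tyrosine phosphatases 3 rose and 0 fell. Among all genes tested 13.4% rose and 15.1% fell. Leaving out control 4 or knockdown 4, 3 of the 16 rose in place of 6, and leaving out control 4 or knockdown 5, 1 fell in place of 2.

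Socs3, the feedback inhibitor of gp130 receptors, had 3.33, 1.80, 3.87 and 3.54 CPM in the controls and 16.2, 14.3, 10.4 and 16.6 CPM in knockdown. Every knockdown library was far above the highest control. The rise was 4.57-fold (log2 fold change 2.19, SE 0.27, adjusted p = 0.000567), and no single library left out ended the call. Socs1, which inhibits the JAKs directly and restrains interferon-gamma signals, had 3.17, 6.97, 9.42 and 7.77 CPM in the controls and 16.6, 32.5, 15.6 and 20.2 CPM in knockdown. Control 3 was the lowest library and knockdown 3 the highest (3.10-fold, log2 fold change 1.63, SE 0.34, adjusted p = 0.00657). Socs6 rose from 16.5 ± 1.76 to 23.3 ± 1.84 CPM (SD, n = 4 each; 1.42-fold, adjusted p = 0.0212), a call that ended when control 4, knockdown 2 or knockdown 4 was left out (adjusted p up to 0.0683).

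Socs5, the most abundant SOCS message per kilobase in every library, fell. It had 119.0, 148.6, 125.5 and 131.6 CPM in the controls and 90.9, 107.0, 86.6 and 83.8 CPM in knockdown, with no overlap (1.42-fold, log2 fold change -0.51, SE 0.12, adjusted p = 0.0135). Its share of the summed RPKM of the SOCS group and Cish was 52.3 ± 3.87% in controls and 33.0 ± 1.23% in knockdown. For Socs3 the share was 2.81 ± 0.940% and 11.4 ± 2.29%, and for Socs1 5.86 ± 1.98% and 16.5 ± 4.55% (SD, n = 4 each). Socs2, Socs4, Socs7 and Cish did not pass (log2 fold changes 0.20, 0.55, 0.00 and -0.35). For Socs4 the groups did not overlap (adjusted p = 0.06), and it passed with upper quartile scaling (0.0317).

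The 250 bases before the gene starts of the RefSeq promoter table (GRCm38.p6) were searched for TTCNNNGAA, the palindrome bound by STAT dimers. This pattern reads the same on both strands. The table held 33 of the 45 members, with 45 starts. The motif occurred before 2 of these starts (4.44%), against 7.02% of all 32851 starts in the table. Of the target tier, Bcl3, Cebpb, Pim1 and Pim3 were searched and held no match. A2m, Cebpd, Ccnd1 and Myc had no start listed and were not searched. The members with a match were Socs3, on the minus strand at chr11:117969367-117969616, and Ifnar2, on the plus strand at chr16:91372533-91372782. They are printed 5′ to 3′ with the motif in capitals, followed by the same window of Stat3 (minus strand, chr11:100939541-100939790), which holds no match. The longer form with 4 bases between TTC and GAA, which STAT6 prefers, occurred before Ifngr2 and Stat2 (2 of 45 starts, 4.44%, against 5.85% of all).

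Socs3: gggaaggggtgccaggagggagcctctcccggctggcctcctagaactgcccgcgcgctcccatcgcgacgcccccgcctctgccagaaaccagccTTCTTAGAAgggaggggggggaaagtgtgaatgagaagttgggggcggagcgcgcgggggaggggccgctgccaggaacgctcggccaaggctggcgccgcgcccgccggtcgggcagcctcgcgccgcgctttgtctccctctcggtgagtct
Ifnar2: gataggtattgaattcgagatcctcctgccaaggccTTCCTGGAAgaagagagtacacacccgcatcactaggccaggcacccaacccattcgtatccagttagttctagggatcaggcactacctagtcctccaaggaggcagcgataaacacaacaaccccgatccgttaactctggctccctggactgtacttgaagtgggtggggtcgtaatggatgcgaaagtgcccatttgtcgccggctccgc
Stat3: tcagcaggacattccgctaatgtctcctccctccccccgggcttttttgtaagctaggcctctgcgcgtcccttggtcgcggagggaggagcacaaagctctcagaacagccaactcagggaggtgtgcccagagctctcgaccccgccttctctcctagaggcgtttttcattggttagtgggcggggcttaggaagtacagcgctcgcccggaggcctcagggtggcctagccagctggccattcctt

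The Socs3 match begins 154 bases and the Ifnar2 match 214 bases before the start. Socs3 rose 4.57-fold, and Ifnar2 did not pass (adjusted p = 0.483). A match describes the letters in this window, and no binding was measured.

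Pias3, named as the protein inhibitor of STAT3, had 31.6, 30.3, 25.5 and 26.5 CPM in the controls and 20.9, 17.4, 22.7 and 19.1 CPM in knockdown. All knockdown libraries were below all controls (1.42-fold, log2 fold change -0.51, SE 0.14, adjusted p = 0.0225), and adjusted p was 0.0567 when control 4 was left out and 0.052 when knockdown 5 was. Pias1, Pias2 and Pias4 did not pass (log2 fold changes -0.31, 0.39 and -0.38). Pias1 passed as lower without control 3 (log2 fold change -0.43, adjusted p = 0.00958). The groups did not overlap for Pias2 or Pias4, in opposite directions.

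Ptpn1 encodes PTP1B, which dephosphorylates JAK2 and the leptin receptor pathway. It rose from 29.5 ± 2.03 to 43.6 ± 6.08 CPM (SD, n = 4 each; 1.47-fold, log2 fold change 0.56, SE 0.14, adjusted p = 0.013), which ended when control 4, knockdown 4 or knockdown 5 was left out (adjusted p up to 0.0573). Ptpn2, the T cell phosphatase that acts on JAK1 and nuclear STATs, had 18.1, 12.5, 13.6 and 14.5 CPM in the controls and 18.4, 29.9, 21.1 and 18.7 CPM in knockdown. Control 3 nearly reached the lowest knockdown library. Its call (log2 fold change 0.585, SE 0.19, adjusted p = 0.0467) ended when any 1 library other than control 3 was left out (adjusted p up to 0.138). Ptpn11, or SHP2, the most abundant inhibitor-tier message at 205.2 CPM in controls, had 206.0 CPM in knockdown and did not pass (log2 fold change 0.01, SE 0.11, adjusted p = 0.975).

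Ptpn6, or SHP1, a phosphatase of blood and immune cells, had 1.11, 0.459, 0.306 and 0.488 CPM in the controls and 3.597, 3.82, 1.09 and 1.82 CPM in knockdown. Knockdown 4 lay within the range of the controls. The rise was 4.37-fold (log2 fold change 2.13, SE 0.53, adjusted p = 0.0139). The summed microglia and macrophage markers were also highest in knockdown 2 and 3 (177.7 and 162.8 CPM) and lower in 4 and 5 (62.1 and 85.0 CPM), and their part in the Ptpn6 result was not tested.

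The targets held both the largest rises and the largest falls of all tiers, and 6 of 8 changed in each of the fits that left out 1 library. A2m, the protease inhibitor alpha-2-macroglobulin, a classic acute-phase gene of STAT3 in rodents, had 7.69, 13.01, 19.0 and 25.3 CPM in the controls. In knockdown it had 500.7, 638.3, 384.4 and 370.7 CPM. The lowest knockdown library exceeded the highest control many times over, and control 3 was the lowest (29.1-fold, log2 fold change 4.86, SE 0.39, adjusted p = 0.000136). Cebpd, a transcription factor induced in the acute phase, had 6.28, 6.89, 20.4 and 15.8 CPM in the controls and 64.6, 171.2, 50.7 and 95.7 CPM in knockdown. Its levels varied widely within each group, and knockdown 3 was the highest (7.72-fold, log2 fold change 2.95, SE 0.50, adjusted p = 0.00308).

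Bcl3, a nuclear partner of NF-kB, had 3.6, 1.96, 5.46 and 3.89 CPM in the controls and 13.6, 13.4, 13.5 and 18.3 CPM in knockdown. There was no overlap (3.93-fold, log2 fold change 1.98, SE 0.29, adjusted p = 0.0012). Cebpb, the partner of Cebpd in the acute phase, rose from 6.68 ± 1.69 to 14.7 ± 5.76 CPM (SD, n = 4 each; 2.19-fold, adjusted p = 0.0161), with 23.2 CPM in knockdown 3 and 10.7 to 12.8 CPM in the others. Cebpb and Cebpd share 312 and 562 exon bases with genes on the opposite strand, Tmem189 (33010 reads over the 8 libraries) and Spidr (2659), and strand was not used in counting.

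The targets that fell are a kinase and a cyclin of growth. Pim1, a survival kinase, had 9.11, 8.50, 10.4 and 9.81 CPM in the controls and 4.30, 5.79, 4.58 and 3.47 CPM in knockdown. Each knockdown library was below each control (2.09-fold, log2 fold change -1.06, SE 0.20, adjusted p = 0.004). Ccnd1, cyclin D1 of the G1 phase, had 13.3, 16.2, 20.5 and 21.2 CPM in the controls and 9.68, 6.17, 10.2 and 10.1 CPM in knockdown (1.97-fold lower, log2 fold change -0.98, SE 0.22, adjusted p = 0.00855). The groups did not overlap, and knockdown 3 was the lowest. Ccnd1 shares 1100 exon bases with LTO1 on the opposite strand. Pim3 and Myc did not pass (log2 fold changes -0.18 and 0.39, adjusted p = 0.287 and 0.164).

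**Figure D4:**
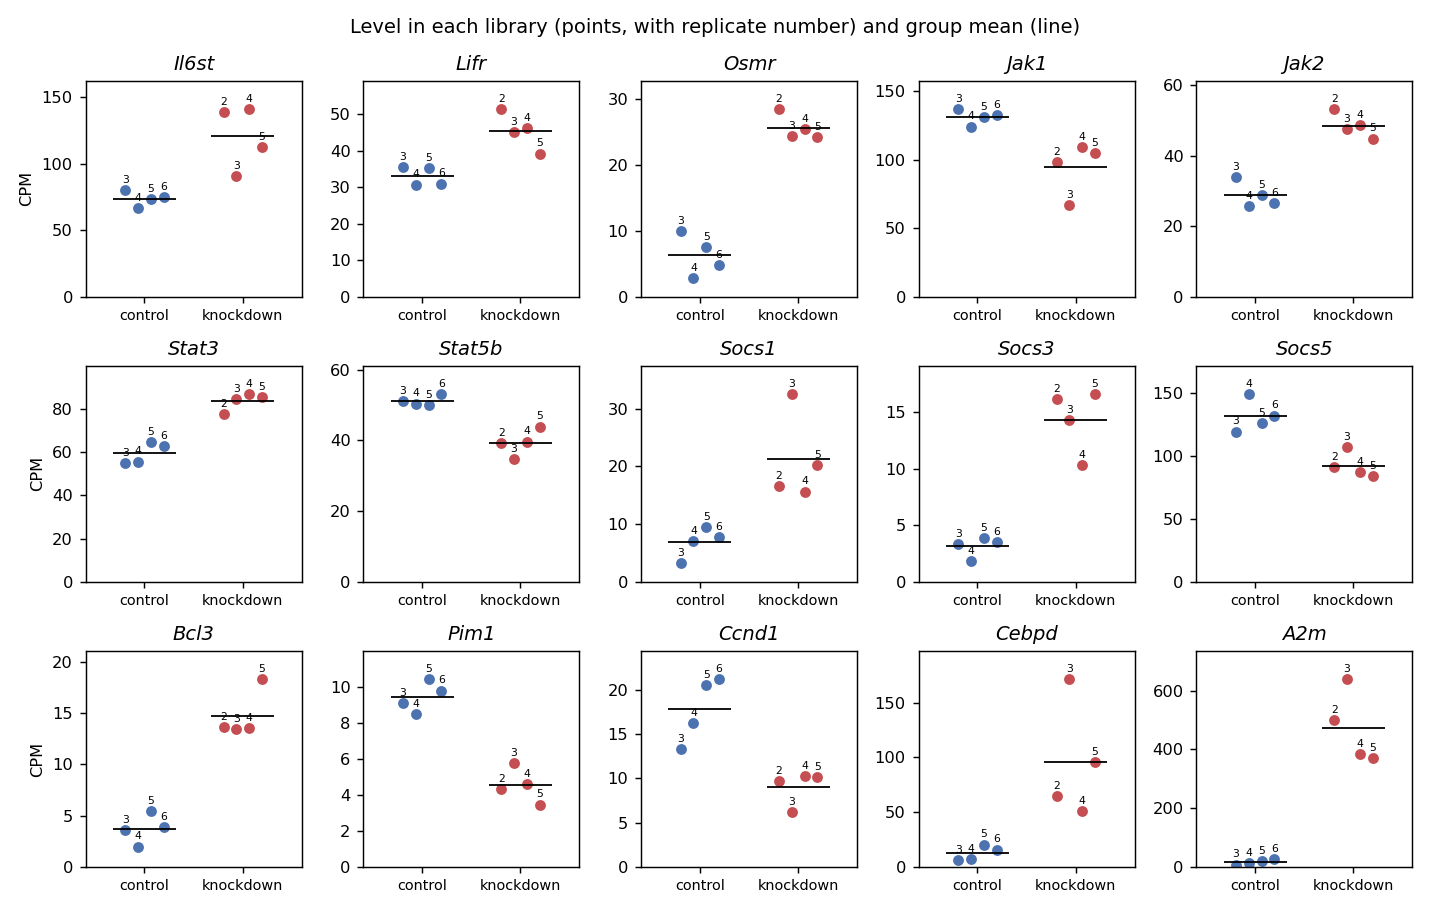
CPM of 15 members in each library (points with their replicate numbers, controls blue, Ogt knockdown red) and the group mean (line); every axis starts at 0. The groups do not overlap in any of the 15 panels; Il6st, Lifr, Osmr, Jak2, Stat3, Socs1, Socs3, Bcl3, Cebpd and A2m are higher in knockdown and Jak1, Stat5b, Socs5, Pim1 and Ccnd1 lower.

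Ligands of these receptors were measured from a separate list of 17. Only 9 passed the filter, of which 3 rose and 1 fell (13.4% and 15.1% of all genes). Lif, leukaemia inhibitory factor, had 0.947, 3.36, 4.46 and 3.36 CPM in the controls and 11.7, 14.7, 12.3 and 10.7 CPM in knockdown (4.07-fold, log2 fold change 2.02, adjusted p = 0.00442). Each knockdown library exceeded each control, and control 3 was the lowest. Ctf1, cardiotrophin 1, which also signals through Lifr, rose 2.89-fold (adjusted p = 0.0067). Il15, a ligand of lymphocyte receptors, rose 2.56-fold (adjusted p = 0.00967), and Il4 fell 2.06-fold from 12.4 ± 1.82 CPM (SD, n = 4; adjusted p = 0.00435). Strand was not used in counting, and exons shared with other genes were looked for at the members alone, not at Il4 or other ligands. Il6, the ligand that names the family, was not tested and had at most 0.434 CPM in any library, and Osm, the ligand of Osmr, at most 0.688 CPM. Among 24 other receptors, 20 were tested, 4 rose and 2 fell, so 30% changed, near the 28.5% of all genes. Those changed included Il10ra (2.70-fold higher), Il3ra (2.73-fold higher) and Il21r (3.84-fold higher). Prlr, the prolactin receptor that signals through JAK2 and STAT5, was 2.04-fold lower. The call ended for Il10ra when control 4 was left out, for Il3ra with knockdown 5 left out, for Il21r with control 4, 5, 6 or knockdown 2 left out, and for Prlr with control 4, 5, 6 or knockdown 4 or 5 left out (adjusted p up to 0.0889). The 4 that rose became 7 without control 3, 1 without control 4, and 2 without control 5, control 6, knockdown 2 or knockdown 5; the 2 that fell became 0 or 1 when any 1 library but control 3 was left out. The 3 ligands that rose became 5 without control 3 and 7 in DESeq2.

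Of 15 other regulators 3 rose (20%, against 13.4% of all genes) and 0 fell, so 20% changed, against 28.5% of all genes. Nmi, a STAT-binding protein induced by interferon, rose 2.74-fold (adjusted p = 0.000634) and Gab1, a docking protein below gp130, 1.75-fold (adjusted p = 0.0139; lost without control 4, 0.0515). Ptprc, the CD45 phosphatase of blood-derived cells, rose from 0.971 ± 0.160 to 5.62 ± 4.17 CPM (SD, n = 4 each; log2 fold change 2.53, and 1.88 without knockdown 2). Of 20 further genes known as STAT3 targets, 14 rose (against 13.4% of all genes) and 0 fell, with a median log2 fold change of 1.19. Vim rose 6.37-fold, Sbno2 2.65-fold, Cdkn1a 2.15-fold and Bcl2 1.80-fold; the 14 became 9 with no filter on low counts. Gfap, on this list too, is also an astrocyte marker and a large part of the astrocyte sum. That sum is therefore not independent of this list. Astrocyte markers were higher in the same libraries, with a summed level of 9934 to 13930 CPM against 1510 to 5719 CPM in controls, and their part in these rises and in those of the members was not tested.

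Kinases able to phosphorylate STAT3 on its serine were lower or did not pass. Of 12, 4 fell and 0 rose, so 33.3% changed, against 28.5% of all genes (15.1% lower). The median log2 fold change was -0.32. Cdk5, a neuronal kinase, had 240.7, 172.7, 162.5 and 169.0 CPM in the controls and 67.4, 96.4, 71.1 and 76.4 CPM in knockdown (2.39-fold lower, log2 fold change -1.26, adjusted p = 0.00086). The groups lay far apart, with control 3 the highest library. Mapk9 and Mapk8, which encode JNK2 and JNK1, fell 1.76-fold and 1.69-fold (adjusted p = 0.00227 and 0.00265), and Nlk 1.40-fold (0.0136). Mapk3, which encodes ERK1, and Mtor did not pass (adjusted p = 0.113 and 0.528). The 4 that fell became 8 without both libraries numbered 3, and 1 kinase rose without control 3 or knockdown 3. Summed dopamine neuron markers were lower in the same libraries (441.9 to 696.9 CPM, against 1477 to 3375 CPM), and their part in this was not tested.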

How the data were processed

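Whole-number read counts per gene were deposited by the authors in 1 table. They were made with featureCounts 2.0.3 over exons of GENCODE vM30, per the file headers, with no option for strand or for pairs as units. Per the submitters' processing notes, FastQC, Trimmomatic and STAR were used, and the build was mm10. GENCODE vM30 describes GRCm39, a later build, and this conflict was not resolved; coordinates are those of the table. Exon lengths are per the file headers and gave RPKM.

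Symbols came from GENCODE M21 by gene ID (52073 of 56691 IDs matched). Genes were filtered with filterByExpr (19912 left), scaled by TMM and tested with edgeR 4.0.16 (glmQLFit, robust, two-sided) in R 4.3.3, all 8 libraries, with Benjamini-Hochberg adjustment over all genes tested. Fold changes are knockdown over control; SE is the log2 fold change divided by the square root of F. A floor of 3 reads is worth 0.0212 to 0.0626 CPM and covers counting error alone. Libraries of a group differed beyond sampling noise (chi-square per degree of freedom 25.3 to 489.5). The test was tried on simulated data before use.

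Members and lists were chosen with earlier results of these data known. Members past the threshold are named with values, as are all JAKs and STATs; of the other lists up to 4 with the smallest p, and other genes named were picked with their values known. The settings also tried were DESeq2 1.42.0, scaling by RLE or by the upper quartile, no filter, a strict filter (1 CPM or more in 4 libraries), the replicate block, each library left out, and both libraries numbered 3 left out.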

Additional observations from a re-analysis of the deposited data

Results flagged for a closer look

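In each group of 4 libraries, the gap between the highest or lowest library and its nearest neighbour was compared with the range of the group, for the 44 tested members and Ogt (90 groups). Chance flags about 1 in 20 such groups, and 11 stood out, 7 of them through control 3. That library was high for Il10rb (10.84 CPM, against 2.90 to 4.00 in the other controls), Ifnar1 (45.57, against 29.5 to 31.8), Jak3 (20.22, against 7.62 to 8.04), Tyk2 (16.71, against 5.16 to 7.12), Stat6 (21.74, against 4.48 to 5.14) and Pias4 (35.53, against 24.3 to 24.8). It was low for Socs4 (9.636 CPM, against 15.7 to 16.4). Knockdown 3 was high for Il11ra1 (132.7 CPM, against 74.5 to 77.0 in the other knockdown libraries) and low for Ifnar1 (29.05, against 36.1 to 37.2) and Ccnd1 (6.172, against 9.68 to 10.2). Knockdown 5 was high for Bcl3 (18.27 CPM, against 13.4 to 13.6). Endothelial markers were also high in control 3, and their part in these values was not tested. Control 3 was the highest of all 8 libraries for 10 of the 44 members and the lowest for 12, against 25.2% and 26.0% of all genes tested.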

How the results depend on the processing

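The counts of 17 members higher and 6 lower became 19 and 4 with upper quartile scaling, which moved the median of all genes by 0.09 in log2, 13 and 5 with no filter, and 25 and 8 without both libraries numbered 3. Leaving out 1 library at a time gave 11 to 20 higher and 3 to 6 lower. Without control 4, 14 of the 23 changed members kept their call, and without both libraries numbered 3 all 23 did. With the replicate number as a block (replicate block), 4 members were higher (Socs3, Bcl3, Cebpd and A2m) and 0 lower, and all-gene calls fell from 5668 to 1258. The labels do not say whether the numbers pair the libraries, and this was not settled here. Deviations of same-numbered libraries from their group means correlated at 0.104, 0.099 and 0.042 for numbers 3, 4 and 5. Differently numbered pairs gave -0.103 to 0.081. Libraries numbered 3 and 4 correlated best with their own number, and those numbered 5 did not. Directions reversed past the threshold for Stat6 (log2 fold change -0.568 to 0.55 when 1 library was left out, the latter without control 3, and 0.658 without both libraries numbered 3) and Jak3 (0.626 without both). Stat5a, Stat5b, Lifr, Socs6 and Ptpn2 missed the threshold with no filter. Il6ra and Socs4 passed in DESeq2, and Socs4 and Pias2 with upper quartile scaling or the strict filter. The cause was not tested. Depth limits Stat4, Osm and Il6, which did not pass the filter on low counts. Ptpn6 was also low, at 0.306 to 3.82 CPM, but passed that filter.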

Other observations

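The 5 tested genes whose log2 CPM was most like that of Stat3 over the 8 libraries were Tmem43 (Pearson r = 0.995), Irf2 (0.993), Naprt (0.990), Colec11 (0.989) and Acad12 (0.988). Among members, A2m (0.964), Bcl3 (0.958) and Cebpd (0.951) came closest, and Pias3 (-0.924) and Socs5 (-0.867) ran most opposite. These values are descriptions. The 8 points share the group difference and the libraries' makeup, so that any pair of genes that differ by group correlates. Socs3 relative to Stat3 in RPKM was 0.106 to 0.2 in the controls and 0.393 to 0.684 in the knockdown libraries.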
